A study of Mus musculus with 2 samples.

Results

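Distal convoluted tubule cells of the newborn mouse kidney were picked out of whole-kidney single-cell libraries by Slc12a3, the gene for the thiazide-sensitive sodium chloride cotransporter. A cell barcode was used when it held at least 3000 unique molecular identifiers (UMIs, each standing for 1 captured RNA molecule) and at least 500 genes, with at most 20% of UMIs from mitochondrial genes. It counted as a Slc12a3 cell when it held at least 2 UMIs of Slc12a3, at most 1 each of Slc12a1, Aqp2 and Slc34a1, at most 2 of Col3a1, and none of Scnn1g or Pecam1. These limits on measured values left 84 Slc12a3 cells of 9735 barcodes. The 7 genes of the rule are therefore described and never tested.

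The series holds 2 droplet libraries of whole kidney at postnatal day 0, called replicate 1 and replicate 2 here. Both are of 1 genotype, written Rbpj c/+ ; Foxd1cre/+, so both carry the same Rbpj and Foxd1cre alleles and no other genotype was analysed here. Rbpj is the DNA-binding protein through which Notch receptors act. Foxd1cre drives Cre recombinase in the stromal progenitors of the kidney, a lineage separate from the nephron tubule. The labels do not state that the libraries came from separate animals or litters, nor whether kidneys were pooled. The p-values below therefore measure only how far differences between cell groups vary between these libraries, which may be technical. That spread is shared over all cell groups of a fit, with the library as a block, and the SEs come from the same fit.

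The distal convoluted tubule follows the thick ascending limb of the loop of Henle and leads into the connecting tubule. Its cells take up sodium chloride through the cotransporter that Slc12a3 encodes, which is switched on by the WNK kinases, and they take up magnesium through the TRPM6 channel. The late part of the segment also moves calcium, with calbindin carrying it across the cell and the exchanger NCX1, encoded by Slc8a1, passing it to the blood.

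Replicate 1 gave 23 Slc12a3 cells among 5529 kept barcodes, a share of 0.416% (exact 95% interval 0.264 to 0.624). Replicate 2 gave 61 among 4206, a share of 1.45% (1.11 to 1.86). The intervals do not overlap, so the yield of these cells differed between the libraries beyond counting error. Slc12a3 cells had a median of 12873 UMIs in replicate 1 (range 3241 to 100849) and 21564 in replicate 2 (range 3001 to 115898), and together they held 446497 and 1598503 UMIs. A median of 10.5% and 11.2% of their UMIs was mitochondrial, against 10.1% and 9.56% in cells with Slc12a1 and 8.16% and 8.52% in cells with Aqp2. Between them the libraries kept 6 barcodes with the same sequence, and no Slc12a3 cell barcode was shared. A doublet score marked 1 Slc12a3 cell in each library, and these were kept.

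Slc12a3 itself ranged widely among the cells chosen on it. In replicate 1 a Slc12a3 cell held from 2 to 134 of its UMIs, with a median of 8. In replicate 2 the range was 2 to 233, with a median of 18. Each library has a thin end, with 9 and 20 cells at 2 to 4 UMIs, and a dense end, with 6 and 23 cells at 50 or more.

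The cells just inside and just outside the limit differed in the summed levels of other genes of the segment. Among cells that met every other limit but held 1 UMI of Slc12a3 (68 and 74 cells), Tmem52b, a membrane protein gene and distal convoluted tubule marker, stood at 46.8 and 45.7 CPM, the gene's UMIs per 1000000 of the cells' summed UMIs. At exactly 2 UMIs (4 and 14 cells) it stood at 730 and 123 CPM. The 14 cells of replicate 2 were uneven, several with 0 UMIs of Tmem52b and 1 with 16. Wnk1, the kinase gene at the head of the WNK pathway, stood at 168 and 161 CPM outside and at 646 and 281 CPM inside. Slc12a3 in the 14 cells of replicate 2 was at 61.4 CPM, and in droplets of 10 to 99 UMIs, which hold free RNA and no whole cell, it was at 56.2 CPM in that library and 18.2 CPM in replicate 1. Tmem52b stood at 47.2 and 97.9 CPM in those droplets of replicates 1 and 2. The part of free RNA in the cells at exactly 2 UMIs was not tested.

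Of 14 marker genes of the segment, 13 had UMIs in the Slc12a3 cells of each library, and Fgf13 had none in either. At least 3 of the markers were present in 21 of 23 cells and in 58 of 61. Their summed level was 7545 and 4628 CPM, against 1732 and 1893 CPM in the cells with Slc12a1. Markers of 2 cell types that the rule keeps out were low: 8 endothelial markers summed to 33.6 and 25.02 CPM, with Cdh5, Emcn, Tie1 and Esam at 0 in replicate 1, and 12 proximal tubule markers summed to 69.4 and 71.9 CPM. Those of the neighbouring segments, which the rule also limits, were not low. The 16 loop markers summed to 3854 and 3222 CPM, against 7760 and 6959 CPM in cells with Slc12a1. The 17 connecting tubule and principal cell markers summed to 4502 and 2903 CPM, against 8067 and 9005 CPM in cells with Aqp2. Nephron progenitor and early nephron markers summed to 531 and 1057 CPM, with at least 3 of them in 13 of 23 and 26 of 61 cells, against 1005 and 986 CPM in cells with Slc12a1. Erythroid markers summed to 443 and 3187 CPM, and the highest single cells reached 2572 and 510811 CPM of them. Macula densa markers summed to 271 and 592 CPM, podocyte markers to 237 and 90.1 CPM and immune markers to 69.4 and 62.6 CPM. The rule holds no gene of these types. The highest single cells reached 4368 and 4961 CPM of macula densa markers, 13267 and 888 CPM of podocyte markers, and 3229 and 8032 CPM of immune markers. The macula densa values are those of 1 gene of that list, Robo2, whose highest single cells also stood at 4368 and 4961 CPM. They do not show macula densa cells among the Slc12a3 cells. Markers of intercalated cells, the acid-base cells of the collecting system, were uneven, at 1071 CPM in replicate 1, where 2 of 23 cells held at least 3 of them, and 65.1 CPM in replicate 2, where 5 of 61 did.

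As a background, cells with at least 2 UMIs of Pecam1, an endothelial gene, were taken with no other limit. A doublet score marked 62 of 737 and 46 of 670 of these cells. Whether a UMI in them is free RNA or the cell's own was not tested. The median depth of the Pecam1 cells was 12378 and 14364.5 UMIs. With every cell thinned to 3000 UMIs, a UMI of Trpm6 was seen in 17.4% and 31.1% of Slc12a3 cells and in 0.407% and 1.19% of Pecam1 cells. For Tmem52b the shares were 91.3% and 82.0% against 1.90% and 5.07%. The distance was smaller for Wnk1, at 87.0% and 75.4% against 46.4% and 50.1%, and for Slc8a1, at 52.2% and 49.2% against 42.6% and 39.6%. For S100g the shares were 65.2% and 50.8% against 14.9% and 26.3%.

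To show the DNA next to the genes that rose with Slc12a3, the 250 bases before the start site are given for Slc12a3 and for Trpm6, Pvalb and Abca13, and for Slc12a1 of the neighbouring segment. The sequences are RefSeq's, build GRCm38.p6, written 5′ to 3′ along the gene's strand. They lie at chr8:94328958-94329207 (plus strand) for Slc12a3, chr19:18749480-18749729 (plus) for Trpm6, chr15:78206401-78206650 (minus) for the first of 2 Pvalb start sites, chr11:9191692-9191941 (plus) for Abca13 and chr2:125152350-125152599 (plus) for Slc12a1. Capitals mark GCCNNNGGC, the letters bound by AP-2 factors, the family of Tfap2b, a transcription factor gene of the distal nephron. These letters read alike on both strands and were found in 13.7% of 32851 promoters of the same length.
Slc12a3: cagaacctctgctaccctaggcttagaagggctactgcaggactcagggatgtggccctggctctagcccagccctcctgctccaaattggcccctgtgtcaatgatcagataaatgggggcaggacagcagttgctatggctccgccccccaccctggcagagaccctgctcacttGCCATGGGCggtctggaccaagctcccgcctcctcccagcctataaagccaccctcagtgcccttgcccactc
Trpm6: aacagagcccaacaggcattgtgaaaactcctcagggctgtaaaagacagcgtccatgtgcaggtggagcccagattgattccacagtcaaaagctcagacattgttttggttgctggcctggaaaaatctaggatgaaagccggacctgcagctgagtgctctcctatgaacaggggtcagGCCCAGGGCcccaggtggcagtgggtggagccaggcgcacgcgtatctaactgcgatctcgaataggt
Pvalb: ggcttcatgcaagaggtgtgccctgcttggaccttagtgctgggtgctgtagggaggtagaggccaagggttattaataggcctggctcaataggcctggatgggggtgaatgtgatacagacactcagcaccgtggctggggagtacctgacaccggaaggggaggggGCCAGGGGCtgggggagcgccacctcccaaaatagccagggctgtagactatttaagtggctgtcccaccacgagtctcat
Abca13: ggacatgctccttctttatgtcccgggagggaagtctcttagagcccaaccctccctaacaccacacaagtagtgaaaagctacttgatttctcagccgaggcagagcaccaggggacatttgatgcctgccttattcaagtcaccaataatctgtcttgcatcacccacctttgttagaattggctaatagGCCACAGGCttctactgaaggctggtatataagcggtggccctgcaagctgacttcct
Slc12a1: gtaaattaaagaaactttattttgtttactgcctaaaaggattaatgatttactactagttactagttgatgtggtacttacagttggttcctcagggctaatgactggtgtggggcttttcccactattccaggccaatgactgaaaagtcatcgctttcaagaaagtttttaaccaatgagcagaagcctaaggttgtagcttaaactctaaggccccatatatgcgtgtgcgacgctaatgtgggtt
The match starts 73 bases before the start site in Slc12a3, 68 in Trpm6, 81 in Pvalb and 58 in Abca13. Wnk4 held matches at 167 and 38 bases, and the windows of Slc12a1, Tmem52b, Emx1 and Klhl3 held none. In the windows searched, GTTAAT, part of an HNF1 site (6.43% of promoters, both strands), and AAGGTCA, bound by ERR receptors (4.08%, both strands), were not found. A match is a run of letters, and binding was not measured.

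Slc12a3 cells were compared over UMIs summed per library with 3 neighbours chosen by their own gene: 327 and 370 cells with Slc12a1, the cotransporter of the thick ascending limb; 189 and 167 cells with Aqp2, the water channel of principal cells; and 102 and 99 cells with Scnn1g, a sodium channel subunit. Each neighbour also held at most 1 UMI of Slc12a3. Slc12a1 cells, like Slc12a3 cells, held none of Scnn1g, while Aqp2 cells had no limit on it and can include connecting tubule cells. The part of these limits in differences of genes that go with Scnn1g was not tested. The 3 comparisons share the same Slc12a3 cells, so their values stand side by side and are not independent, and a cell weighs in a sum by its UMIs. Of 15610 genes tested with edgeR's quasi-likelihood test at a Benjamini-Hochberg adjusted p under 0.05, 186 (1.19%) were higher in Slc12a3 cells than in Slc12a1 cells and 128 (0.82%) were lower. Without cells at exactly 2 Slc12a3 UMIs these counts were 730 and 737. Against Aqp2 cells 920 (5.89%) were higher and 1043 (6.68%) lower, and against Scnn1g cells 1461 (9.36%) were higher and 1039 (6.66%) lower. Counts of list genes below are to be set beside these shares over all genes. Below, a gene that rose or fell passed this test, and other genes are given by their values. Scnn1g cells also carried Ret, Upk3a and Lcn2, genes of the ureteric bud and urothelium, and get less room for that reason.

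Of the magnesium transport genes, Trpm6, Trpm7 and Cnnm2 rose against all 3 neighbours, and Cnnm4, Slc41a1 and Slc41a3 passed against none. Trpm6, the apical magnesium channel, stood at 103 and 176 CPM in the Slc12a3 cells of replicates 1 and 2, and at 4.01 and 3.05 CPM in Slc12a1 cells. The log2 difference was 5.37 ± 0.30 (SE, n = 2 libraries; edgeR adjusted p = 0.000145). It rose against Aqp2 cells (9.90 and 13.8 CPM) by 3.64 ± 0.27 and against Scnn1g cells by 4.22 ± 0.30. Both libraries lay far above every neighbour, with no overlap.

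Pvalb, the calcium buffer parvalbumin that marks the early part of the segment, stood at 316 and 171 CPM against 10.2 and 2.45 CPM in Slc12a1 cells (log2 difference 5.49 ± 0.29, edgeR adjusted p = 0.000136). In Aqp2 cells only 3 UMIs of it were counted, which gives a ratio of 1031 with a counting interval of 350 to 5022. Trpm7, the widely expressed partner channel of TRPM6, rose from 108 and 116 CPM in Slc12a1 cells to 656 and 542 CPM. Cnnm2, a magnesium transporter gene of the basal membrane, rose by 1.84 ± 0.15 on the log2 scale against Slc12a1 cells and by 1.65 ± 0.15 against Aqp2 cells.

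Of the 22 tested genes of salt and magnesium transport, 6 were higher than in Slc12a1 cells and none was lower. Their median log2 difference was 0.71, against -0.05 over all genes tested. Against Aqp2 cells 13 were higher and 1 was lower, Hsd11b2, which shields the mineralocorticoid receptor from glucocorticoids (median 1.37, all genes -0.05). Against Scnn1g cells 15 were higher and none lower (median 2.61, all genes -0.04).

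Summed over all Slc12a3 cells, the general salt machinery was near the loop's level and above the collecting system's. Kcnj1, the potassium channel ROMK, was at 269 and 175 CPM, at 207 and 178 CPM in Slc12a1 cells (log2 difference 0.19 ± 0.27) and at 9.28 and 9.31 CPM in Aqp2 cells (4.55 ± 0.33). Fxyd2, the sodium pump's gamma subunit, was at 3111 and 3516 CPM, at 3572 and 4563 CPM in Slc12a1 cells (-0.24 ± 0.46) and at 200 and 462 CPM in Aqp2 cells (3.45 ± 0.50). Neither passed the test against Slc12a1 cells and both rose against Aqp2 cells. These sums mix unlike cells. In the Calb1-rich cells described below Fxyd2 stood at 9269 and 9264 CPM and Kcnj1 at 241 and 159 CPM. In the cells low in both Calb1 and Tmem52b, Fxyd2 stood at 164 and 466 CPM and Kcnj1 at 0 and 28.9 CPM. Kcnj10, the basolateral potassium channel that sets the membrane voltage of the segment, did rise against Slc12a1 cells, from 31.8 and 45.1 to 119 and 123 CPM (1.67 ± 0.15), and against Aqp2 cells by 0.92 ± 0.15.

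**Figure D1:**
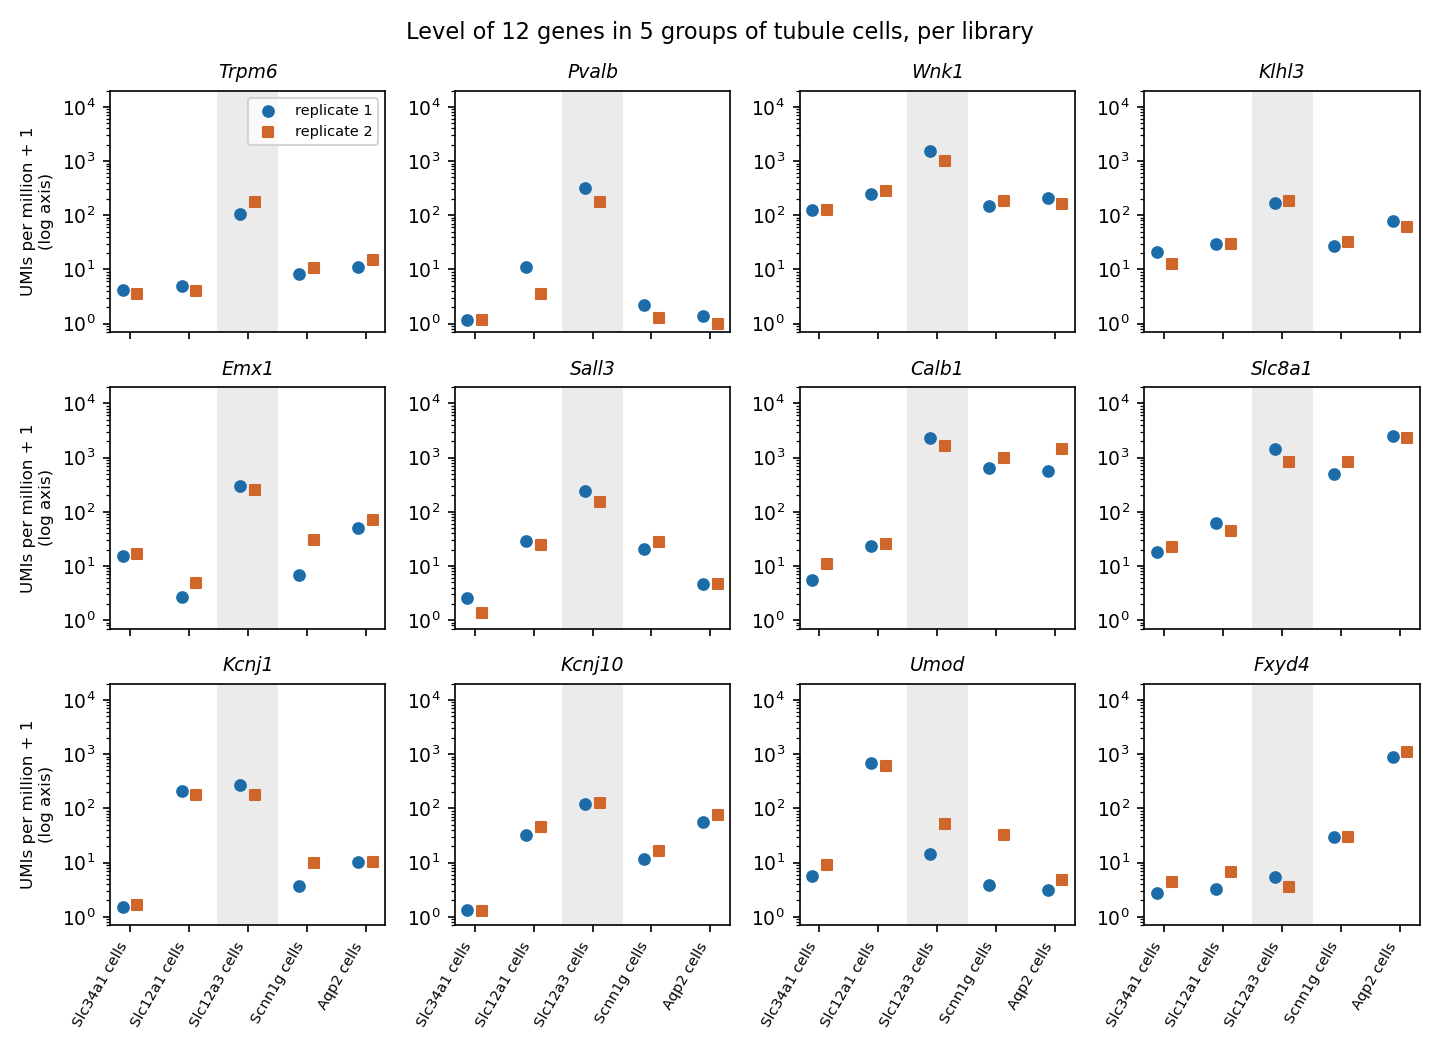
Levels of 12 genes in 5 groups of tubule cells, each named by the gene that chose it, with 1 point per library and the vertical axis in CPM plus 1 on a log scale. In the shaded column of Slc12a3 cells Trpm6, Pvalb, Wnk1, Klhl3, Emx1 and Sall3 lie above every other group in both libraries, Kcnj1 lies level with Slc12a1 cells, and Slc8a1 lies below Aqp2 cells.

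Of the WNK kinase genes, Wnk1 and Wnk4 rose against all 3 neighbours, and Wnk2, with no UMI in replicate 1, fell by 2.78 on the log2 scale (SE 0.48) against Aqp2 cells (27.2 and 28.5 CPM) and by 1.93 (SE 0.53) against Scnn1g cells, where the call was lost in 3 alternative settings. Wnk1 stood at 1559 and 997 CPM in Slc12a3 cells, at 246 and 279 CPM in Slc12a1 cells and at 208 and 162 CPM in Aqp2 cells. It rose against Slc12a1 cells by 2.30 ± 0.21 (edgeR adjusted p = 0.0011), against Aqp2 cells by 2.80 ± 0.22 and against Scnn1g cells by 3.07 ± 0.22 on the log2 scale. These UMIs come from the 3′ end and do not separate the full kinase from the kidney's short form, which starts at a promoter inside the gene. Wnk4, a second kinase of the pathway, was at 208 and 163 CPM against 82.6 and 96.7 CPM in Slc12a1 cells (1.05 ± 0.17, edgeR adjusted p = 0.0214).

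Klhl3, the adaptor that hands WNK kinases to a ubiquitin ligase, rose from 28.1 and 28.9 CPM in Slc12a1 cells to 170 and 178 CPM (log2 difference 2.68 ± 0.24). Its partner Cul3 was at 141 and 143 CPM against 136 and 134 CPM (0.12 ± 0.12, edgeR adjusted p = 0.693). Stk39, the kinase SPAK that phosphorylates the cotransporter, was at 249 and 191 CPM against 250 and 224 CPM in Slc12a1 cells (-0.10 ± 0.19, edgeR adjusted p = 0.856). Sgk1, an aldosterone-induced kinase gene, rose against Slc12a1 cells by 2.83 ± 0.36 and fell by 3.08 on the log2 scale (SE 0.27) against Aqp2 cells, where it stood at 139 and 202 CPM. Of 22 pathway genes tested, 5 were higher and none lower than in Slc12a1 cells (median 0.10, all genes -0.05), and 6 were higher and 6 lower than in Aqp2 cells (median 0.21, all genes -0.05).

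The calcium carriers Calb1, S100g and Slc8a1 rose against Slc12a1 cells. Calb1, calbindin, stood at 2331 and 1617 CPM against 22.1 and 24.4 CPM in Slc12a1 cells, a log2 difference of 6.49 ± 0.45 (edgeR adjusted p = 0.000403). S100g, a second calbindin, stood at 4746 and 2688 CPM against 66.2 and 93.0 CPM (5.70 ± 0.56). Slc8a1 stood at 1440 and 844 CPM against 61.8 and 43.3 CPM (4.46 ± 0.34), although 1 cell held 61.3% of its UMIs in replicate 1.

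Against Aqp2 cells none of the 3 rose at the threshold. Calb1 was at 576 and 1425 CPM there (log2 difference 1.15 ± 0.37, edgeR adjusted p = 0.0781), and it passed in 5 alternative settings, with differences from 1.14 to 2.04. S100g was at 3417 and 6195 CPM (-0.19 ± 0.46). Slc8a1 was at 2545 and 2334 CPM, and the fall of 1.09 on the log2 scale (SE 0.30, edgeR adjusted p = 0.0465) did not pass in 8 of the alternative settings, among them the removal of doublets (-0.91). Trpv5, the apical calcium channel, was at 20.2 and 4.38 CPM, with 1 UMI in Slc12a1 cells (ratio 215, counting interval 33.3 to 8998) and 27.2 and 22.2 CPM in Aqp2 cells. Its call against Slc12a1 cells was lost in 5 alternative settings, with differences from 5.65 to 7.42. Casr, the calcium-sensing receptor of the thick ascending limb, fell by 2.85 on the log2 scale (SE 0.31) against Slc12a1 cells, from 80.9 and 58.7 to 17.9 and 5.63 CPM. In all, 7 of 15 calcium genes were higher and 1 was lower than in Slc12a1 cells (median 1.36, all genes -0.05), and 5 were higher and 1 lower than in Aqp2 cells (median 0.51, all genes -0.05).

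**Figure D2:**
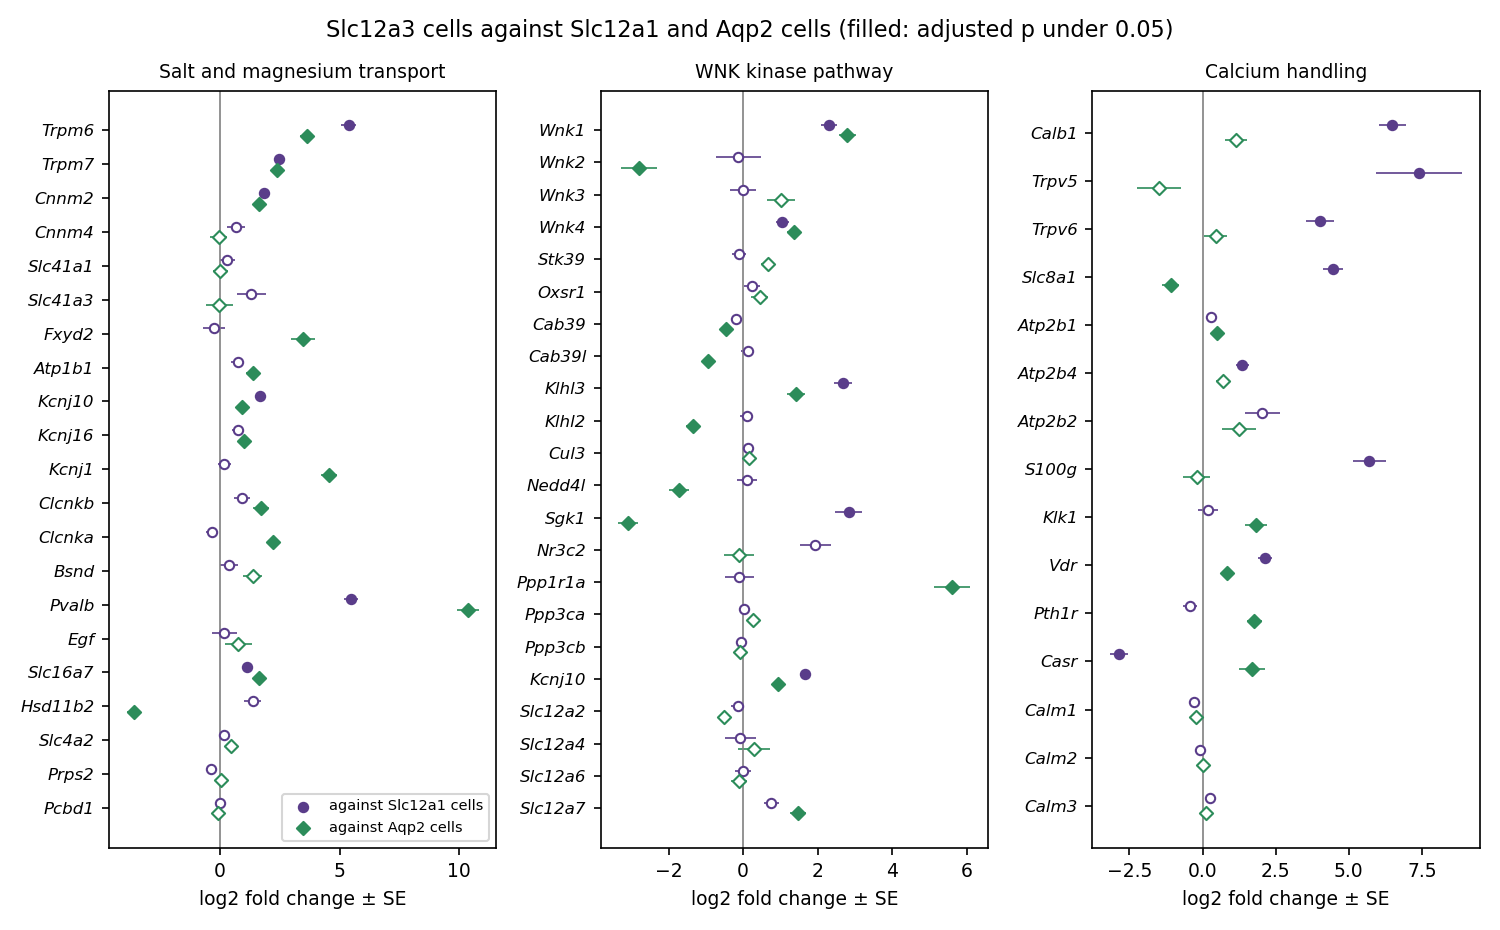
Log2 difference (horizontal axis, ± SE) of salt and magnesium, WNK and calcium genes between Slc12a3 cells and Slc12a1 cells (circles) or Aqp2 cells (diamonds), filled where the adjusted p was under 0.05. Of the calcium genes, 7 pass above 0 against Slc12a1 cells and 5 against Aqp2 cells.

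Among the 36 transcription factor genes tested, 5 were higher and 2 lower than in Slc12a1 cells (median 0.10, all genes -0.05). Emx1, a homeobox gene known from the forebrain, stood at 293 and 255 CPM against 1.72 and 3.94 CPM (log2 difference 6.64 ± 0.51, edgeR adjusted p = 0.000526). It also rose against Aqp2 cells, which held 48.4 and 68.6 CPM (2.24 ± 0.40). Sall3, a zinc-finger gene of the spalt family, stood at 242 and 148 CPM against 28.05 and 23.3 CPM in Slc12a1 cells (2.91 ± 0.28) and 3.64 and 3.56 CPM in Aqp2 cells (5.73 ± 0.35). Gata3, a regulator of the collecting duct and distal nephron, lay between the neighbours, at 139 and 51.9 CPM against 5.72 and 10.0 CPM in Slc12a1 cells (3.40 ± 0.42) and 534 and 353 CPM in Aqp2 cells (a fall of 2.36, SE 0.37).

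Tfap2b stood at 354 and 226 CPM, at 471 and 398 CPM in Slc12a1 cells (log2 difference -0.58 ± 0.23, edgeR adjusted p = 0.243) and at 48.0 and 64.3 CPM in Aqp2 cells (2.34 ± 0.24). Esrrb, an estrogen-related receptor gene, was also near the loop's level in the sum over all Slc12a3 cells. It stood at 82.9 and 44.4 CPM in Slc12a3 cells, 66.4 and 46.2 CPM in Slc12a1 cells (0.13 ± 0.24) and 2.76 and 1.92 CPM in Aqp2 cells (4.70 ± 0.33). Prox1, a homeobox gene of the distal nephron, rose against Aqp2 cells by 4.87 ± 0.43. The factors that fell against Slc12a1 cells were Ehf (-2.61 ± 0.33), an epithelial ETS factor that also fell against Aqp2 cells, and Irx2 (-2.75 ± 0.52), an Iroquois factor with no UMI in the Slc12a3 cells of replicate 1.

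Genes of the thick ascending limb marked the other side of that comparison. Of 16 loop markers tested, 7 fell against Slc12a1 cells and none rose (median -1.08). Umod, the gene of uromodulin, stood at 13.4 and 49.4 CPM against 686 and 592 CPM (a fall of 4.32 on the log2 scale, SE 0.64, edgeR adjusted p = 0.0121), with 64.6% of the UMIs of replicate 2 in 1 cell. Cldn10, a sodium-permeable tight-junction claudin, fell from 493 and 599 to 4.48 and 11.9 CPM (by 5.66, SE 0.45). Ptger3, a prostaglandin E2 receptor gene, had 1 UMI in all Slc12a3 cells and stood at 156 and 130 CPM in Slc12a1 cells, a ratio of 293 with a counting interval of 52.6 to 11583.

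Pappa2, a macula densa protease gene, and Slc9a3, the sodium/proton exchanger NHE3, fell by 7.55 (SE 0.37) and 5.89 (SE 0.42). Slc34a2, a phosphate transporter gene, had no UMI in Slc12a3 cells and 39.4 and 26.8 CPM in Slc12a1 cells, at least 22.6-fold lower, a call lost in 5 alternative settings. Cldn8, a claudin of the aldosterone-sensitive distal nephron, went the other way and rose from 19.9 and 16.6 to 159 and 72.6 CPM (2.56 ± 0.33).

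Connecting tubule and principal cell genes split the neighbours. Of 17 tested, 6 were higher than in Slc12a1 cells and none lower (median 0.65), while 14 were lower than in Aqp2 cells and none higher (median -3.02). Scnn1b, a subunit of the epithelial sodium channel, stood at 53.8 and 30.7 CPM, above 0.644 and 2.60 CPM in Slc12a1 cells (log2 difference 4.53 ± 0.49) and below 342 and 417 CPM in Aqp2 cells (-3.38 ± 0.35). Fxyd4, a pump regulator of the collecting duct, stood at 4.48 and 2.5 CPM against 891 and 1083 CPM in Aqp2 cells (-8.47 ± 0.41, edgeR adjusted p = 3.28e-05). Elf5, a transcription factor of principal cells, fell by 7.85 (SE 0.46), and Wnt9b, a ureteric signal, had no UMI in Slc12a3 cells and was at least 64.8-fold lower.

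Genes of mitochondrial energy supply were higher than in Aqp2 cells for 30 of 35 tested (median 0.92), against 5.89% of all genes. They were higher than in Scnn1g cells for 34 of 35 (median 1.40), against 9.36% of all genes. Compared with Slc12a1 cells 1 of 35 was higher (median 0.55), against 1.19% of all genes. Mitochondrial UMI shares moved the same way, being highest in Slc12a3 cells and lowest in Scnn1g cells (5.13% and 5.33%), and their part in these counts was not tested.

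Ranked by the smallest of their 3 log2 differences, the genes that rose against all 3 neighbours were led by Pvalb (5.49), Adrb1 (3.68), Trpm6 (3.64), Galnt9 (3.57), Cavin2 (3.31), Sall3 (2.91) and Tmem52b (2.66). Adrb1 is the beta-1 adrenergic receptor gene and stood at 13.4 and 32.5 CPM against 1.36 and 2.30 CPM in Slc12a1 cells. Abca13, a large lipid transporter gene, stood at 1234 and 629 CPM, above 212 and 177 CPM in Slc12a1 cells (2.25 ± 0.38) and 3.76 and 3.56 CPM in Aqp2 cells (7.97 ± 0.53).

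The comparison with Slc12a1 cells depended on the mitochondrial limit. With at most 10% mitochondrial UMIs, which left 11 and 28 Slc12a3 cells, 64 genes passed in place of 314. Pvalb (log2 difference 6.48), Calb1 (5.90), S100g (5.39), Emx1 (6.13) and Tmem52b (2.98) still passed, as did Trpm6 (3.15), Trpm7 (1.41), Wnk1 (1.45) and Slc8a1 (2.70) with smaller differences. The genes Wnk4 (0.77), Klhl3 (1.72), Sgk1 (2.95), Cnnm2 (0.85), Kcnj10 (1.37), Sall3 (2.36), Gata3 (2.59), Ehf (-2.07), Irx2 (-2.02), Casr (-3.40), Trpv5 (7.12), Umod (-2.62), Adrb1 (1.47), Galnt9 (4.48) and Abca13 (1.34) kept their sign and did not pass. Against Aqp2 cells Wnk4 (0.56), Klhl3 (0.51), Cnnm2 (0.66), Kcnj10 (0.01) and Adrb1 (2.88) did not pass there either, nor did Adrb1 (3.25) against Scnn1g cells. With cells thinned to 3000 UMIs Adrb1 (3.12) and Galnt9 (2.95) did not pass against Slc12a1 cells, nor Kcnj10 (0.67) and Prox1 (3.55) against Aqp2 cells. With at least 10000 UMIs Wnk4, Sgk1 (2.09), Irx2 (-2.65) and Abca13 (2.27) did not pass against Slc12a1 cells.

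The Slc12a3 cells fell into several clusters. Clustering of all 9735 barcodes without the 7 genes of the rule gave 28 clusters, of which 1 of 323 cells, led by Tmem52b, Emx1, Abca13 and Trpm6 next to Slc12a3 itself, took 47 of the 84 cells. A second, of 211 cells and led by Calb1, Pgam2 and S100g, took 19, and the other 18 were spread over 9 clusters. Over the 28 clusters the genes whose levels followed Slc12a3 most closely were Defb1 (Pearson r = 0.906), Pgam2 (0.897), S100g (0.892), Guca1b (0.871), Cyb5rl (0.851) and Tmem52b (0.838), given as a description over clusters that share 2 libraries.

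Calbindin and Tmem52b divide the cells into 3 ranges, set after their values were seen and given without a test. In 6 and 13 cells Calb1 reached 5000 CPM or more. The sums of these cells held 13482 and 13813 CPM of Calb1, 15666 and 24240 CPM of S100g, and 344 and 175 CPM of Trpm6, with a median of 3.5 and 3 Slc12a3 UMIs per cell. They were shallow, with a median of 6631 and 7372 UMIs, and low in mitochondrial UMIs, at 1.57% and 4.02%.

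In 15 and 35 cells Calb1 was below that level and Tmem52b at or above 500 CPM. These held most of the Slc12a3 UMIs, with a median of 28 and 62 per cell, but they were also deeper, at a median of 13181 and 22746 UMIs. Their Slc12a3 stood at 1511 and 2822 CPM, against 2579 and 1697 CPM in the first range, so the order changed between the libraries. Abca13 (1407 and 957 CPM) and Sall3 (291 and 242 CPM) lay above the first range (653 and 621, 34.4 and 104 CPM). Wnk4 (203 and 250 CPM) and Emx1 (272 and 393 CPM) lay below it (327 and 295, 550 and 486 CPM). Trpm6, at 71.4 and 295 CPM, changed order between the libraries, against 344 and 175 CPM in the first range. Pvalb, at 264 and 274 CPM, lay below the first range in replicate 1 (774 CPM) and level with it in replicate 2 (271 CPM). Calb1 in the 15 and 35 cells stood at 684 and 870 CPM. A median of 14.2% and 14.9% of their UMIs was mitochondrial.

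The remaining 2 and 13 cells were low in both. They had a median of 12203.5 and 42532 UMIs, and a cell weighs in the sums of the comparisons by its UMIs. Their Slc12a3 stood at 164 and 191 CPM, Trpm6 at 0 and 12.9 CPM and Wnk4 at 0 and 16.1 CPM. They held nephron progenitor genes instead, with Cited1 at 574 and 149 CPM and Six2 at 123 and 73.9 CPM, and Robo2, a guidance receptor gene of the early kidney, at 3851 and 1024 CPM. Low Tmem52b is set by the choice of this range, but Trpm6 and Wnk4 were not used in it, and their levels go against the label. Under 10 UMIs of Slc12a3 were held by 2 of 2 and 10 of 13 of these cells. Within a factor of 1.5 of the Calb1 boundary lay 0, 1 and 0 cells of replicate 1 and 4, 2 and 1 cells of replicate 2, in the order of the ranges. Nearness to the Tmem52b boundary was not counted.

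**Figure D3:**
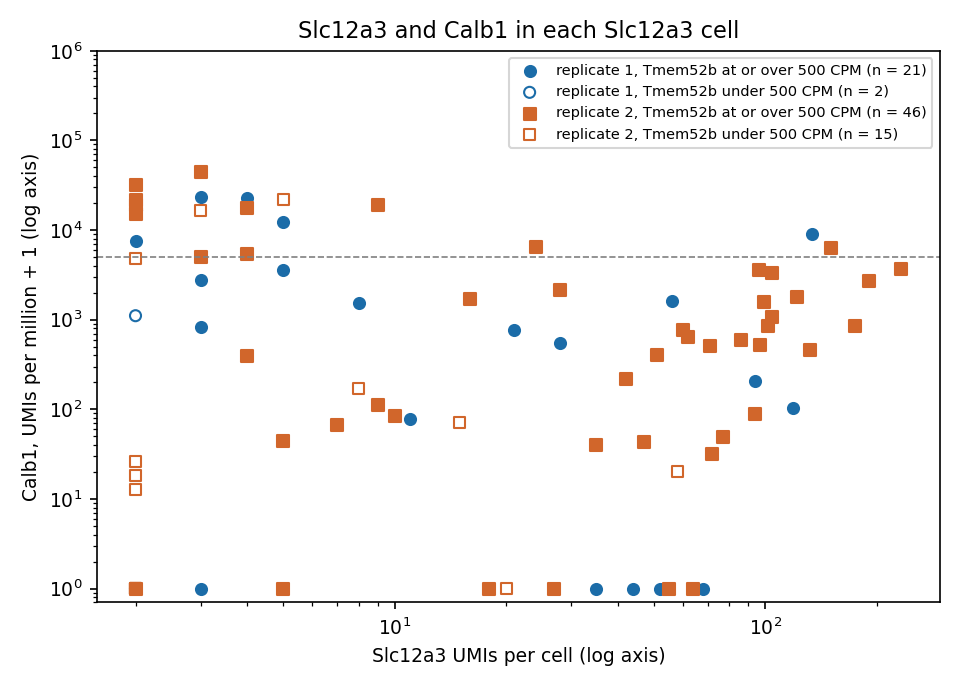
Each point is 1 Slc12a3 cell, with its Slc12a3 UMIs on the horizontal axis and its Calb1 level in CPM plus 1 on the vertical axis, both on log scales; the dashed line marks 5000 CPM, and open points have Tmem52b under 500 CPM. Above the line lie 6 cells of replicate 1 and 13 of replicate 2, most of them at the low end of Slc12a3 UMIs.

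Within each library the Slc12a3 cells were divided at the median Slc12a3 level of 855 and 1116 CPM, into an upper range of 11 and 30 cells and a lower range of 12 and 31. Of 15278 genes tested, 783 (5.13%) were higher in the upper range and 937 (6.13%) were lower. The ranges differ in make-up: the cells low in both Calb1 and Tmem52b numbered 0 and 0 in the upper range and 2 and 13 in the lower one, and the median mitochondrial share was 15.1% and 16.6% above and 5.26% and 6.48% below. The part of this make-up in the differences was not tested. The cells and the split were both chosen on Slc12a3, so what follows describes how the cells vary and supports nothing further.

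Trpm6, Wnk1, Klhl3 and Kcnj1 were higher in the upper range. Trpm6 stood at 204 and 388 CPM in the upper range and 4.42 and 16.4 CPM in the lower, a log2 difference of 4.81 ± 0.45 (SE). Wnk1 stood at 2423 and 1872 CPM against 716 and 339 CPM (2.30 ± 0.29), Klhl3 at 272 and 354 CPM against 70.8 and 46.0 CPM (2.85 ± 0.36), and Kcnj1 at 472 and 327 CPM against 70.8 and 61.4 CPM (2.82 ± 0.33). The upper values lay above the lower ones in both libraries for all of these. Of 22 tested salt and magnesium genes 14 were higher and none lower (median 1.88, all genes -0.09), and of 22 WNK pathway genes 6 were higher and 1 lower (median 0.51, all genes -0.09).

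Esrrb rose from 4.42 and 6.57 to 163 and 94.8 CPM (log2 difference 4.43 ± 0.44) and Abca13 from 146 and 148 to 2350 and 1269 CPM (3.78 ± 0.43). Slc8a1 rose by 3.15 ± 0.47. The calbindins did not pass in either direction, with Calb1 at 1724 and 1922 CPM in the upper range and 2923 and 1388 CPM in the lower (-0.09 ± 0.43) and S100g at 2627 and 3036 CPM against 6811 and 2426 CPM (-0.60 ± 0.54). Emx1 was at 345 and 445 CPM against 243 and 112 CPM (1.59 ± 0.53). Pvalb rose by 2.91 ± 0.56, though by much more in replicate 2 (373 against 18.6 CPM) than in replicate 1 (436 against 199 CPM).

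Cell cycle genes were lower in the upper range for 23 of 25 tested, and higher for none, against 6.13% and 5.13% of all genes. Of 13 nephron progenitor and early nephron genes 2 were lower, Cited1 and Eya1, and none was higher. Mki67, the proliferation marker Ki-67, stood at 0 and 2.92 CPM above and 155 and 136 CPM below, and its UMIs came from 1 cell of replicate 1 and 7 of replicate 2. Robo2 stood at 13.6 and 4.37 CPM above and 420 and 970 CPM below (a fall of 6.48 on the log2 scale, SE 0.78). With every cell thinned to 3000 UMIs, 170 genes passed in place of 1720, and Esrrb (log2 difference 8.08), Kcnj10 (1.38), Mki67 (-7.10) and Pvalb (0.99) were among those that did not, as were Cited1 (-2.99) and Eya1 (-3.15).

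**Figure D4:**
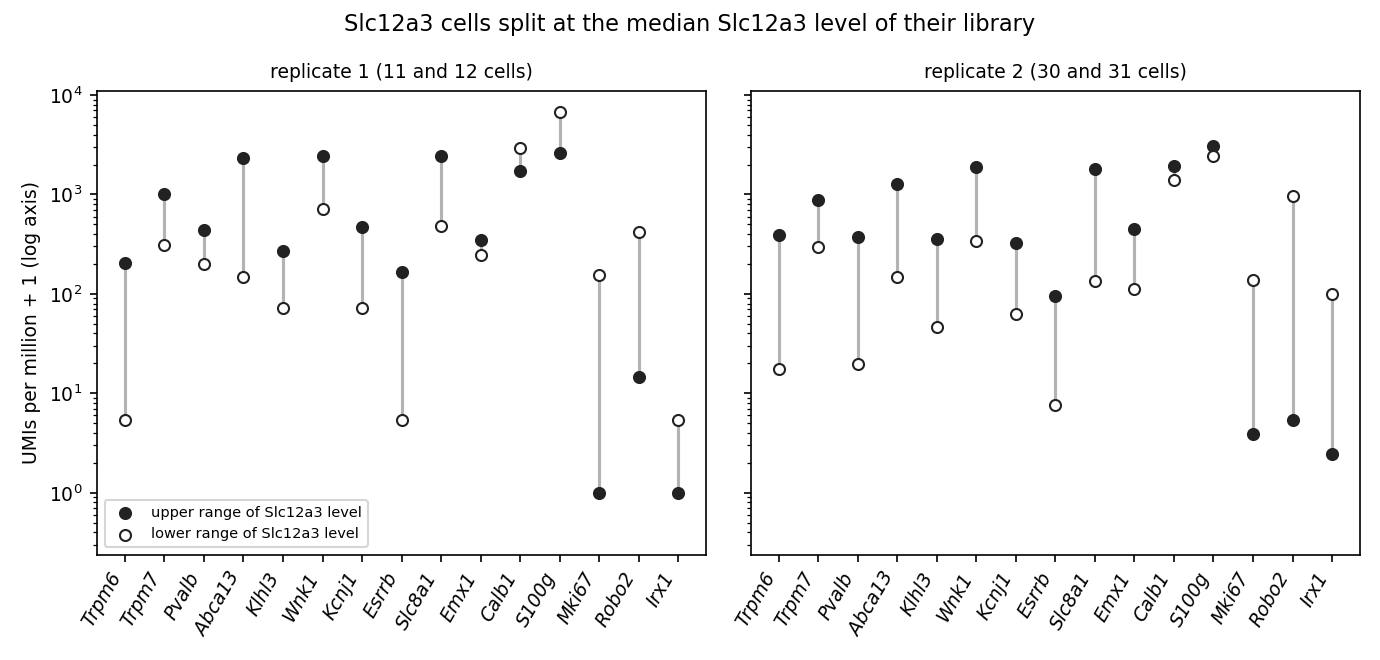
Levels of 15 genes in the upper (filled) and lower (open) range of Slc12a3 level, in 1 panel per library, with the vertical axis in CPM plus 1 on a log scale. Trpm6, Abca13 and Esrrb lie higher in the upper range of both libraries, Calb1 and S100g change order between the libraries, and Mki67 and Robo2 lie higher in the lower range.

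Cells with Slc12a3 and a UMI of Scnn1g, 30 and 68 in number, lie just beyond the rule and are described without a test. Their Slc12a3 level was 2107 and 3075 CPM, against 1577 and 1710 CPM in the Slc12a3 cells of the rule, with Trpm6 at 224 and 277 CPM, Wnk1 at 1326 and 1581 CPM, and Pvalb at 114 and 119 CPM. Slc8a1 stood at 4817 and 9661 CPM and Scnn1b at 206 and 220 CPM. The rule thus leaves out cells in which Slc12a3 and the sodium channel subunits occur together. In the cells left out Slc8a1 lay above its level in Aqp2 cells, and Scnn1b below. The comparisons of both genes with Aqp2 cells hold only for Slc12a3 cells without a UMI of Scnn1g. In the remaining edge groups 10 and 6 cells held 2 or more UMIs of Slc12a1, 4 and 4 held 2 or more of Slc34a1, and none held 2 or more of Aqp2.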

How the data were processed

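Raw UMI counts per gene and barcode of 2 10x Chromium libraries were used as deposited by the authors. Per the file headers the matrices were written by Cell Ranger 4; the submitters' processing notes name Cell Ranger 6.0.1 and build mm10. The libraries held 200331687 and 173166168 UMIs over 32285 features; 6573 and 5317 barcodes reached 3000 UMIs, and 5529 and 4206 were kept. Counts were summed per library and cell group and tested with edgeR 4.0.16 (R 4.3.3): quasi-likelihood test, TMM scaling, filterByExpr, the library as a block, all 5 groups in 1 fit, 10 sums and 4 residual degrees of freedom, Benjamini-Hochberg adjustment over all genes but the 7 of the rule, threshold 0.05. The ranges of Slc12a3 level were fitted with their neighbours likewise; their minimum of 20 cells per library was lowered to 10 after the cell counts were seen. The test was checked on simulated data. Intervals are exact (Clopper-Pearson or Poisson) and cover counting error only, and the floor for groups at 0 is 3 counts over the group.

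Cells and gene lists were chosen with earlier results of these data known. Any gene of the salt and magnesium, WNK, calcium and transcription factor lists could be named, list genes past the threshold, and per comparison the 12 largest changes each way among genes of at least 20 CPM with the same sign in both libraries; the 15 genes highest against all 3 neighbours were ranked, and the 10 genes most like Slc12a3 over clusters of at least 30 cells. Ret, Upk3a and Lcn2, and the boundaries of the Calb1 and Tmem52b ranges, were picked after their values were seen. Clusters are Leiden clusters from scanpy 1.11.5 (2000 variable genes, 30 components, 15 neighbours, resolution 1). Doublets, taken as the barcodes with the highest Scrublet scores at an assumed 0.8% per 1000 barcodes, were kept and left out in an alternative. Other alternatives were DESeq2 1.42.0 (size factors, Wald test), no filter on low counts, no block, only the groups compared, other limits on Slc12a3 UMIs, depth and mitochondrial share, thinning, and leaving out each library. Per library the sign of each difference was read without a test, since 1 library leaves no replicate. The values of 1 gene of the salt and magnesium list are not reported here.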

Additional observations from a re-analysis of the deposited data

How the results depend on the processing

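Counts of genes past the threshold moved by over 1.5 times as follows. Against Slc12a1 cells 314 genes passed, and 64 did with at most 10% mitochondrial UMIs, 1467, 1320 and 1260 with at least 3, 5 and 10 Slc12a3 UMIs, 809 with the other segment genes of the rule at 0, 783 with DESeq2's Wald test, 698 with no low count filter and 525 with only the groups compared. Against Aqp2 cells 1963 passed, and 1109 did with at most 10% mitochondrial UMIs, 930 with cells thinned to 3000 UMIs and 1172 with only the groups compared. Against Scnn1g cells 2500 passed, and 446, 788 and 675 did under the same 3 settings, and 3787 with at least 3 Slc12a3 UMIs. Between the upper and lower range 1720 passed, and 170 did with thinning and 708 with only the groups compared.

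The library is a block in these fits, since each library gives every cell group. With no replicate block 166 genes passed against Slc12a1 cells, 1255 against Aqp2 cells, 1676 against Scnn1g cells and 1249 between the ranges; against Slc12a1 cells Umod (-4.04), Adrb1 (3.81) and Irx2 (-2.74) no longer passed. Of the named genes 2 changed sign in an alternative: Hbb-bs against Slc12a1 cells with the other segment genes at 0 (-0.85 on the log2 scale), and Prox1 between the ranges with thinning (-0.46). The mean share of Slc12a3 cells over the libraries, 0.933%, was 1.45% without replicate 1 and 0.416% without replicate 2. The comparison of ranges was not run in 6 settings that left under 10 cells in a group. The limits on 10 Slc12a3 UMIs, 10000 UMIs and 10% mitochondrial UMIs, and those on other segment genes, were chosen after seeing the data. With 23 cells in replicate 1, genes of a few CPM rest on single UMIs there.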

Other observations

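Genes outside the transport lists gave 3 further descriptions of the Slc12a3 cells. Of 24 genes of the Notch pathway tested, none passed in either direction against Slc12a1 cells with edgeR's quasi-likelihood test (median log2 difference -0.28, all genes -0.05). Over all genes 1.19% were higher and 0.82% lower there, so none of 24 lies near those shares. Against Aqp2 cells 4 fell and none rose, where 6.68% of all genes were lower and 5.89% higher. Hes1, a target gene of Notch signalling, stood at 143 and 103 CPM in Slc12a3 cells, at 168 and 117 CPM in Slc12a1 cells (-0.18 ± 0.18, SE) and at 226 and 214 CPM in Aqp2 cells, from which it fell by 0.84 (SE 0.18, edgeR adjusted p = 0.0167). That call was lost with no replicate block (-0.84) and with at most 10% mitochondrial UMIs (-0.57). Notch2, a receptor gene, stood at 42.6 and 48.8 CPM and at 53.6 and 45.9 CPM in Slc12a1 cells (0.01 ± 0.16). Both libraries carry 1 genotype, so no effect of the Rbpj allele can be read from these values.

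Of 30 hormone and growth factor receptor genes tested, 1 was higher and 4 lower than in Slc12a1 cells. Over all genes 1.19% were higher and 0.82% lower than in Slc12a1 cells. Erbb4, a receptor of the EGF family, stood at 1245 and 1292 CPM against 3897 and 2948 CPM there (a fall of 1.36 on the log2 scale, SE 0.17, edgeR adjusted p = 0.00541) and rose by 1.04 ± 0.17 against Aqp2 cells. The first call was lost with at most 10% mitochondrial UMIs (-1.02) and the second with cells thinned to 3000 UMIs (0.48). Nr3c2, the mineralocorticoid receptor gene, was at 430 and 162 CPM and at 65.9 and 83.0 CPM in Slc12a1 cells (1.94 ± 0.42, edgeR adjusted p = 0.0573), and it passed in 8 alternative settings, with differences from 1.31 to 2.23. Avpr2, the vasopressin V2 receptor gene, stood at 2.24 and 1.25 CPM against 45.6 and 44.5 CPM in Aqp2 cells (-4.93 ± 0.53).

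Globin RNA was also found in the Slc12a3 cells. Of 5 erythroid genes tested 4 were higher than in Slc12a1 cells. Hbb-bs, a beta-globin gene, stood at 278 and 1479 CPM against 70.6 and 83.6 CPM, with 80.6% and 97.0% of its UMIs in 1 cell of each library. The highest single cells held 1726 and 235997 CPM of it, against 919 and 8964 CPM in droplets of 10 to 99 UMIs. In the Calb1-rich cells it stood at 120 and 18329 CPM. Without Slc12a3 cells that held a UMI of another segment's gene, the Hbb-bs difference turned to -0.85 on the log2 scale. The part of free RNA in the rise was not tested.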
